A study of Mus musculus with 16 samples.

Results

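The 10 RNAs described here are transcribed from the mitochondrial genome. They are the rows mt-Rnr2, mt-Nd1, mt-Nd2, mt-Co1, mt-Co2, mt-Atp6, mt-Co3, mt-Nd4, mt-Nd5 and mt-Cytb of a table of 12900 RNAs measured by RNA-Seq in 16 samples. The rows were chosen by name with values of these samples in view, and no threshold on a value was used. Their levels and fold changes are therefore given as a description, without p-values. Counts of members that met a limit on p are a description as well, and no test of the members is drawn from them. All 10 were in the table. The GENCODE vM21 annotation of the mouse genome (GRCm38) lists 37 mitochondrially encoded genes, and 18 of them were in the table, namely 11 of 13 protein-coding genes, 2 of 2 rRNAs and 5 of 22 tRNAs. The 8 rows that were not chosen (mt-Rnr1, mt-Nd3, mt-Nd6, mt-Ti, mt-Tq, mt-Tw, mt-Tt and mt-Tp) were followed as well. The authors kept an RNA if its log2 CPM (the log2 of read counts scaled to a common library size) was above 0.5 in at least 1 sample. The member mt-Atp6 passed in 7 of the protrusion samples and in 0 of the cell-body samples, so a difference between the fractions was built into its presence. The other 9 members passed in samples of both fractions.

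NIH/3T3 fibroblasts, a mouse line long kept in culture, were used, in which a lentivirus had placed a doxycycline-inducible human β-globin coding sequence. It was followed by the β-globin 3′UTR in the control line (HBB) and by the mouse Pkp4 3′UTR in the other (Pkp4 cUTR). Every sample, controls included, was induced with 1 μg/ml doxycycline for 3 days, serum-starved, plated for 2 h on filters with 3 μm pores, given LPA from below for 1 h and fixed in 0.3% paraformaldehyde for 10 min. Protrusions (Ps) that had passed the filter and the cell bodies (CB) above it were collected in 4 replicates each per line. With 1 line for each construct, the construct and the line cannot be told apart.

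The 4 groups of 4 samples had 18660287 to 31260831 reads counted on the table's RNAs. After the authors' scaling the library sizes were 0.83 to 1.11 times as large. CPM are counts per 1000000 reads of the scaled library, and enrichment is the log2 fold change, log2(FC), of Ps over CB with its standard error (SE) from 1 limma-voom fit to all 16 samples. The row of Pkp4, which also receives reads from the Pkp4 3′UTR of the construct, lay at 21.5 to 23.1 CPM in HBB CB and at 306 to 640 CPM in Pkp4 cUTR CB. Of 9 fibroblast markers, 8 were in the table and summed to 19270 to 31540 CPM. The epithelial, endothelial, leukocyte and neuronal markers that were in the table summed to at most 20.4, 1.91, 41.7 and 12.8 CPM. Epcam, Krt18, Kdr, Ptprc, Rbfox3 and Snap25 were not in the table.

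Mitochondria keep a small circular genome of their own, and both of its strands are transcribed into long precursors. The tRNAs that lie between the other genes are cut out, which frees the rRNAs and mRNAs. The mRNAs are translated inside the organelle by ribosomes that hold the mitochondrial rRNAs. Their products are subunits of respiratory chain complexes I (the Nd genes), III (Cytb) and IV (Co1, Co2 and Co3) and of ATP synthase (Atp6), which assemble with partners encoded in the nucleus. Stretches of mitochondrial DNA have also been copied into nuclear chromosomes in the course of evolution. A read from such a stretch fits more than 1 place in the genome.

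The members differed in how much of their sequence has such a copy. An alignment of the 37 genes to the nuclear transcripts of the same annotation placed several of them in 1 stretch of chromosome 1 (GRCm38, chr1:24611535-24616197, minus strand). This stretch held Gm29216, Gm28661, Gm10925, Gm28437, Gm28438, Gm10222 and Gm28439, all annotated as unprocessed pseudogenes. The sequences below are shown because they are what a read of these members has to tell apart. The first pair is the part of the copied end of mt-Co1 that holds its single difference from Gm29216. Capitals mark the base that differs, A1066T, where the mt-Co1 base comes first and positions are counted from 1 at the first base of mt-Co1. They lie at chrM:6390-6419 (plus strand) and chr1:24616159-24616188 (minus strand).
mt-Co1: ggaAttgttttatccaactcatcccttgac
Gm29216: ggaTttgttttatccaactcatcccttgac
The next pair is the start of mt-Nd3, chrM:9459-9488 (plus strand), and of Gm28438, chr1:24613090-24613119 (minus strand), which differ by T3C.
mt-Nd3: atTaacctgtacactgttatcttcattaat
Gm28438: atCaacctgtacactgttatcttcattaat
The last are the first 30 bases of mt-Co2 (chrM:7013-7042), mt-Co3 (chrM:8607-8636) and mt-Atp6 (chrM:7927-7956). They have no capitals because Gm28661, Gm28437 and Gm10925 carry the same letters, there and over all 681, 783 and 678 aligned bases.
mt-Co2: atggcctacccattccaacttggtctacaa
mt-Co3: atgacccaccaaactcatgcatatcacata
mt-Atp6: atgaacgaaaatctatttgcctcattcatt

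Every window of the length of 1 read in each gene was compared with the nuclear transcripts. In mt-Co2, 556 of 559 windows (99.5%) had an exact copy. The share was 658 of 659 windows (99.8%) in mt-Co3 and 553 of 556 windows (99.5%) in mt-Atp6. In mt-Nd4, the first 876 bases were identical to Gm28439, and 59.9% of its windows had a copy. In mt-Co1, 26.5% of windows had a copy, most of them in the stretch from base 1063 to 1545 that Gm29216 matches. A second copy of the whole of mt-Co1, Gm13340 on chromosome 2, differs from it at 37 positions. In mt-Nd2, 0.438% of windows had a copy, and in mt-Rnr2, mt-Nd1, mt-Nd5 and mt-Cytb none did. With up to 2 mismatches allowed, the share was 58.1% in mt-Co1, 8.43% in mt-Nd2 and 0.942% in mt-Nd5, and 0 in mt-Rnr2, mt-Nd1 and mt-Cytb. How the authors' counting treated reads that fit several places is not given in the sources used here.

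Per kb of gene, mt-Co1 was the most abundant member and the 3 rows with copies over nearly their whole length were the least. In HBB CB, mt-Co1 had 4451 ± 795 CPM per kb (SD, n = 4), mt-Nd1 had 1389 ± 188 and mt-Nd2 had 582 ± 91.5. They were followed by mt-Cytb at 469 ± 37.2, mt-Nd5 at 189 ± 37.1, mt-Nd4 at 98.2 ± 15.2 and mt-Rnr2 at 30.4 ± 1.35 CPM per kb. mt-Rnr2 is an rRNA, and whether poly(A) RNA was selected for the libraries is not settled. Its place in this order therefore describes the libraries and not its abundance in the cells. The last places were taken by mt-Co2 at 3.00 ± 1.71, mt-Co3 at 2.63 ± 1.52 and mt-Atp6 at 0.952 ± 0.497 CPM per kb. In this order the ranges of mt-Nd2 and mt-Cytb did not overlap (522 to 718 against 437 to 516), and those of mt-Co2 and mt-Co3 did (1.94 to 5.55 against 1.76 to 4.90). The row mt-Nd3, which is no member and has a copy of 97.3% of its windows, stood at 1.53 ± 0.904 CPM per kb. The members at the low end of this order were those with an exact copy in over 99% of windows. The part of the counting in this order was not tested.

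**Figure D1:**
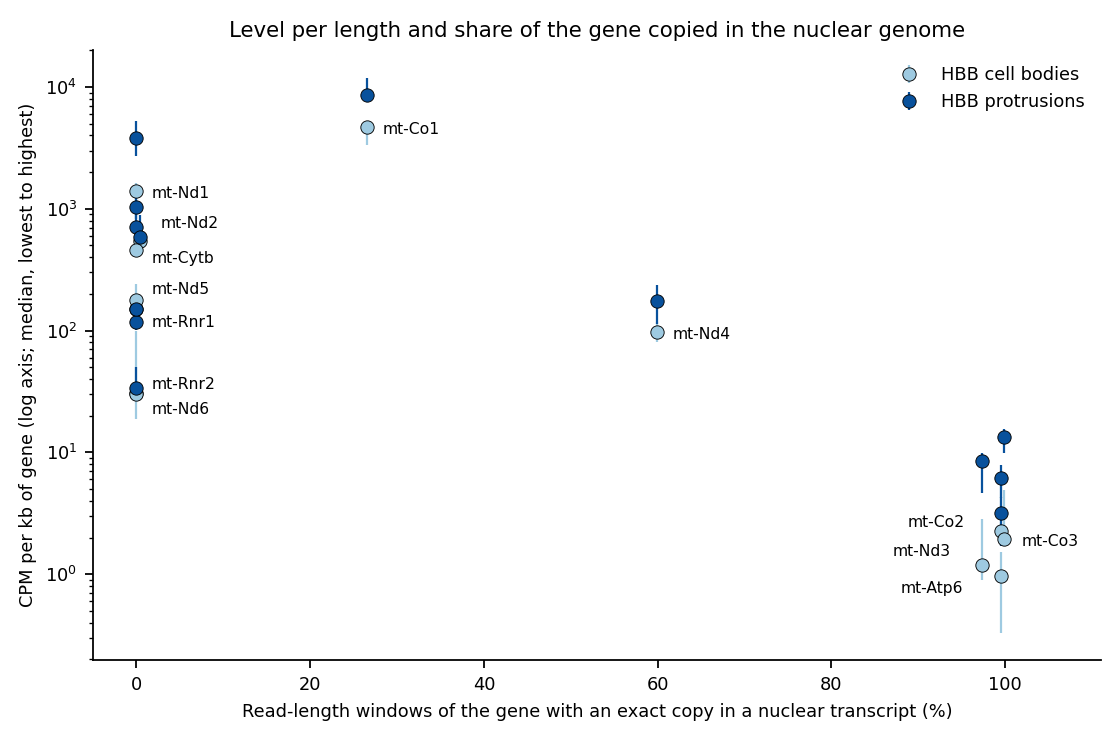
Level per kb of gene (CPM per kb, log axis, median with the lowest and highest of 4 samples) in HBB cell bodies and HBB protrusions against the share of read-length windows of the gene that have an exact copy among nuclear transcripts (%). mt-Co2, mt-Co3, mt-Atp6 and mt-Nd3, at 97.3% or more, lie between 0.332 and 15.6 CPM per kb, and every gene under 60% lies above 18.8 CPM per kb.

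The low members were counted from few reads. Over the 16 samples, mt-Co1 had 68.5% of the reads of all 10 members and mt-Nd1 had 16.7%. The shares of mt-Cytb, mt-Nd2, mt-Nd5, mt-Nd4 and mt-Rnr2 were 5.77%, 4.61%, 2.35%, 1.29% and 0.731%. The remaining 3 members had at most 0.0378% each. Per sample, mt-Co1 had 114964 to 337514 reads, whereas mt-Co2 had 23 to 107, mt-Co3 had 26 to 261 and mt-Atp6 had 6 to 61.

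The rows of the nuclear copies held few reads, like these 3 members, and varied with them. Gm28661 had 11 to 50 reads per sample, Gm28437 had 22 to 186 and Gm10925 had 5 to 36. These rows are no members. Gm28437 was higher in Ps by a log2(FC) of 2.42 in HBB and 2.13 in Pkp4 cUTR cells (adjusted p = 1.16e-05 and 5.32e-05, limma) and Gm28661 by 1.12 and 0.91 (adjusted p = 0.00512 and 0.033). Among CB samples, Gm28437 and Gm28661 were above the authors' filter only in replicate 4 of each line, which limits these p-values. Gm10925 had 1.40 and 2.17, but, like mt-Atp6, it passed the authors' filter only through Ps samples, so these values are a description. Gm29216, the copy of the end of mt-Co1, had 0.86 (adjusted p = 0.0448) and 0.40 (adjusted p = 0.369). With the mean of each group subtracted, log2 CPM over the 16 samples gave r = 0.911 between mt-Co2 and Gm28661, r = 0.912 between mt-Co3 and Gm28437 and r = 0.723 between mt-Atp6 and Gm10925. The same measure was −0.295 between mt-Co1 and Gm29216. These points share libraries and depth, and the pairs share sequence, so the values describe the rows and no more. Among the 3 members r was 0.925 for mt-Co2 and mt-Co3, whereas it was −0.346 for mt-Co2 and mt-Co1, subunits of the same enzyme.

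**Figure D2:**
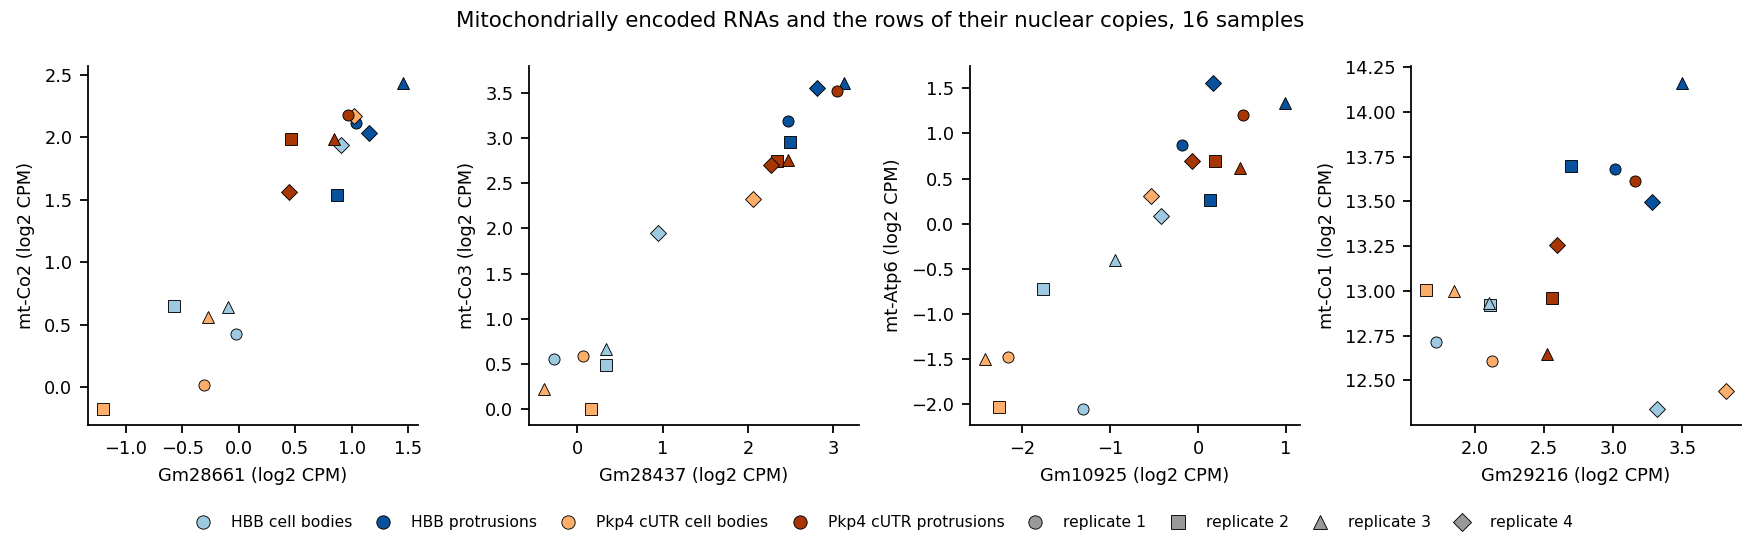
Level (log2 CPM) of mt-Co2, mt-Co3, mt-Atp6 and mt-Co1 against the row of a nuclear copy (log2 CPM) in 16 samples, with colours for the 4 groups and symbols for replicate numbers. The first 3 members rise with their copies. For mt-Co2 and mt-Co3 the cell-body samples of replicate 4 lie apart from the other cell bodies, toward the protrusions, and for mt-Atp6 they are the highest cell bodies. mt-Co1 lies above 12 in every sample and shows no such relation, with r = −0.295 after removal of the group means.

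The cell-body samples of replicate 4 were the highest of their groups in these low rows in both lines. In mt-Co2 and mt-Co3 they stood apart, whereas mt-Atp6 in HBB CB was spread more evenly, at 0.242, 0.604, 0.757 and 1.06 CPM. In HBB CB, mt-Co3 was at 1.47, 1.40 and 1.59 CPM in replicates 1 to 3 and at 3.86 CPM in replicate 4. In Pkp4 cUTR CB it was at 1.50, 1.00, 1.17 and 5.01 CPM. Gm13340 had 94, 153, 113 and 591 reads in HBB CB and 97, 84, 105 and 754 reads in Pkp4 cUTR CB. These samples were lower in mt-Co1 than the others of their groups, at 5196 and 5552 CPM. Without both of them, 6 of the 10 members met the study's rule of enrichment in HBB cells, given next, in place of 7, and 6 in Pkp4 cUTR cells in place of 5. All of these counts include mt-Atp6.

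In control HBB cells most members were higher in Ps than in CB. The study called an RNA enriched at a fold change above 2 and an unadjusted p under 0.05. This rule was met by 7 of 10 members, where 4.54% of all RNAs tested met it. It was met by 4 when libraries were scaled to total reads, without mt-Co1, mt-Co2 and mt-Cytb, and by 4 after quantile normalization, without mt-Co1, mt-Nd1 and mt-Cytb. The rule was met by 0 in the direction of CB, where 4% did. The levels of the 4 Ps samples were all above those of the 4 CB samples for 6 of 10 members, against 25.5% of all RNAs, and all below them for 0 of 10, against 26.8%. Each of these counts in the direction of Ps includes mt-Atp6, whose presence in the table depended on Ps samples. The median log2(FC) was 1.17 over the 10 members and 0.01 over all RNAs. In bulk fractions, more mitochondria and more RNA per mitochondrion cannot be told apart, and nor can fewer cells and less RNA per cell.

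The 16S rRNA, mt-Rnr2, forms the core of the large mitochondrial ribosomal subunit. It had 50.0, 45.4, 49.6 and 47.7 CPM in HBB CB and 171, 204, 237 and 162 CPM in HBB Ps, and its log2(FC) was 1.99 (SE 0.16). In Pkp4 cUTR cells it had 33.4, 30.7, 33.1 and 53.9 CPM in CB and 130, 188, 155 and 123 CPM in Ps, with a log2(FC) of 2.00 (SE 0.16). Fractions did not overlap in either line, and all 8 Ps samples were above all 8 CB samples.

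Among the subunits of complex I, which takes electrons from NADH, the members ran from clearly higher to lower in Ps. mt-Nd1 had 1298, 1360 and 1548 CPM in HBB CB replicates 1 to 3 and 1111 CPM in replicate 4, against 3702, 3633, 5062 and 2583 CPM in HBB Ps, a log2(FC) of 1.47 (SE 0.18). mt-Nd2, which follows mt-Nd1 on the same precursor, had 542, 567, 746 and 562 CPM in CB and 644, 577, 926 and 538 CPM in Ps. Its log2(FC) was 0.13 (SE 0.20), and its fractions overlapped. mt-Nd4 had 130, 162, 112 and 138 CPM in CB and 267, 218, 328 and 155 CPM in Ps, with a log2(FC) of 0.80 (SE 0.26). mt-Nd5 had 298, 440, 348 and 295 CPM in CB and 314, 232, 345 and 184 CPM in Ps. It was the 1 member with a value below 0 in HBB cells, with a log2(FC) of −0.38 (SE 0.23) and a 95% interval of −0.87 to 0.10. For mt-Nd4, too, the fractions overlapped, by the lowest Ps sample, replicate 4.

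mt-Cytb encodes the mitochondrial subunit of complex III, which passes electrons on to cytochrome c. It had 506, 551, 591 and 499.9 CPM in HBB CB and 1138, 1210, 1536 and 950 CPM in HBB Ps. The fractions did not overlap, and log2(FC) was 1.16 (SE 0.15).

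The 3 members of complex IV, the enzyme that reduces oxygen, were all higher in HBB Ps, but only mt-Co1 was counted from many reads. mt-Co1, the catalytic core, had 6730, 7766, 7818 and 5196 CPM in CB and 13129, 13307, 18339 and 11549 CPM in Ps. Its log2(FC) of 1.04 (SE 0.19) was just past a fold change of 2. Without HBB CB replicate 4 it was 0.90, and without HBB Ps replicate 3 it was 0.90 as well, so that the member no longer met the study's rule. mt-Co2, which accepts electrons from cytochrome c, had 1.34, 1.57, 1.56 and 3.82 CPM in CB and 4.32, 2.91, 5.41 and 4.10 CPM in Ps, and CB replicate 4 overlapped the Ps samples. Its log2(FC) was 1.18 (SE 0.34). mt-Co3 went from the CB levels above to 9.15, 7.79, 12.3 and 11.8 CPM in Ps, without overlap, and had the highest log2(FC) of the members, 2.48 (SE 0.34). mt-Atp6, part of the proton channel of ATP synthase, had 0.242, 0.604, 0.757 and 1.06 CPM in CB and 1.83, 1.20, 2.53 and 2.95 CPM in Ps, a log2(FC) of 1.82 (SE 0.41). These 3 rows also carried the widest errors of the 10.

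**Figure D3:**
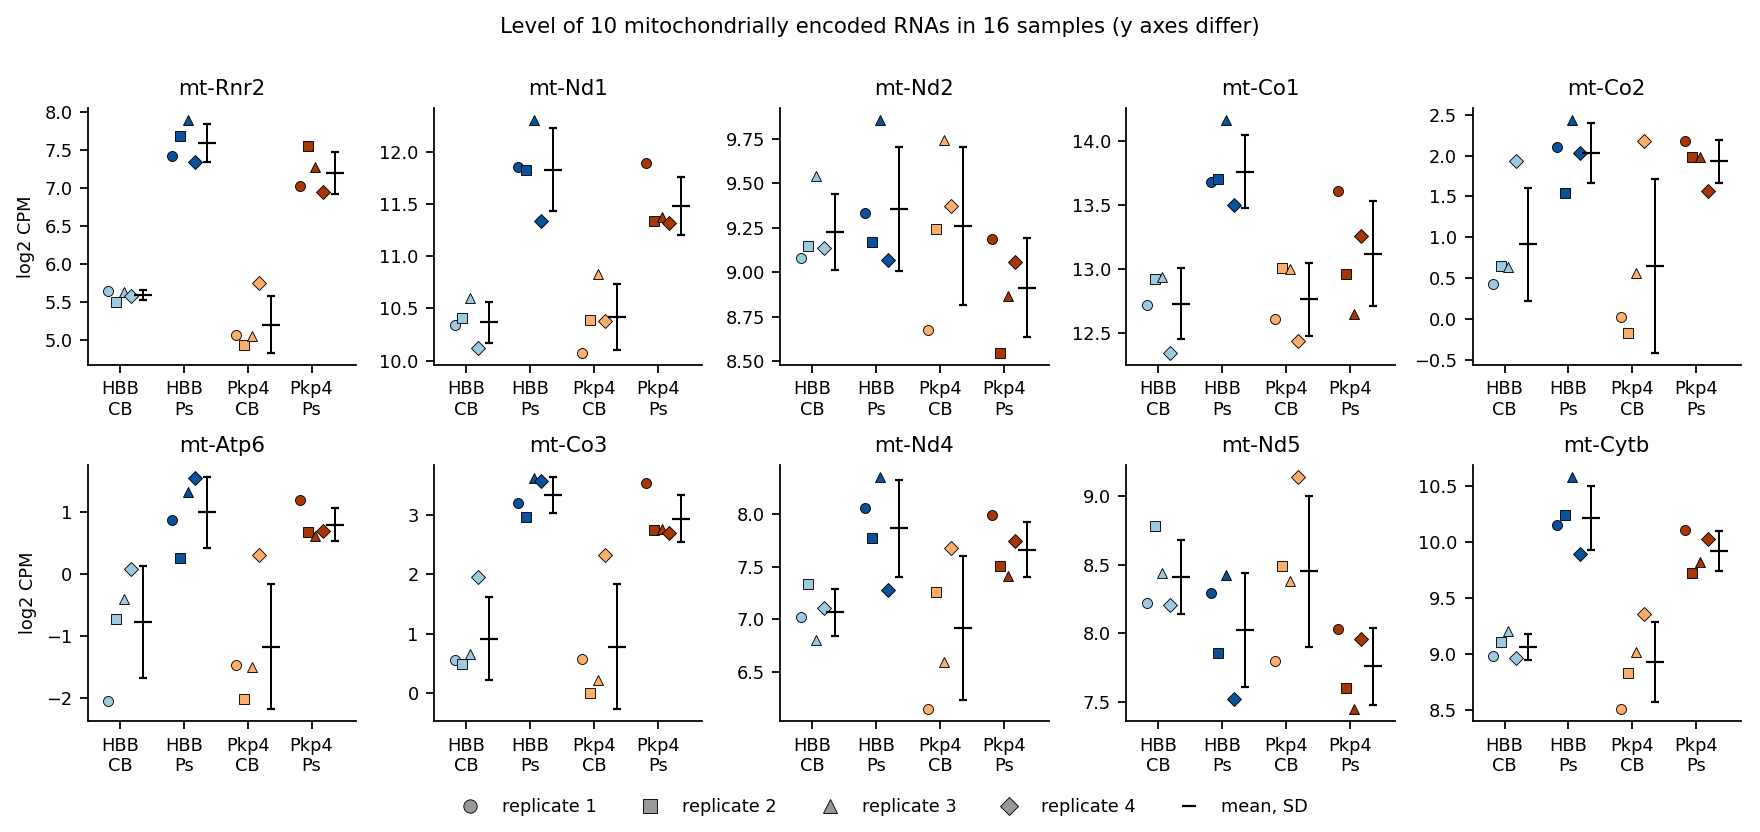
Level (log2 CPM, with a separate scale for each RNA) of the 10 members in the 4 samples of each group, with the group mean and SD in black. The protrusion samples lie above the cell bodies without overlap in both lines for mt-Rnr2, mt-Nd1, mt-Atp6, mt-Co3 and mt-Cytb, while mt-Nd2 and mt-Nd5 overlap in both lines.

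Pkp4 cUTR cells gave a similar order of the members with mostly smaller values. The study's rule was met by 5 of 10 members, where 5.07% of all RNAs met it, by 4 with either of these scalings, which lost mt-Nd1, and by 0 in the direction of CB, where 2.92% did. The fractions did not overlap for 5 of 10 members with Ps higher, against 22.6% of all RNAs, and for 0 with Ps lower, against 22.2%. Here too, each count in the direction of Ps includes mt-Atp6. The median log2(FC) was 1.02 over the members and 0.01 over all RNAs. mt-Nd1 had 1077, 1338, 1823 and 1328 CPM in CB and 3812, 2593, 2651 and 2553 CPM in Ps. mt-Cytb had 364, 455, 520.05 and 656 CPM in CB and 1101, 844, 907 and 1041 CPM in Ps. Both kept their fractions apart, as did mt-Co3, which had 11.5, 6.72, 6.79 and 6.50 CPM in Ps. log2(FC) was 2.22 (SE 0.37) for mt-Co3, 2.03 (SE 0.46) for mt-Atp6, 1.33 (SE 0.37) for mt-Co2, 1.06 (SE 0.18) for mt-Nd1, 0.99 (SE 0.15) for mt-Cytb and 0.75 (SE 0.26) for mt-Nd4. mt-Nd1 fell under a fold change of 2 without Pkp4 cUTR CB replicate 1 (0.95) or Ps replicate 1 (0.93). mt-Cytb passed it, among others, without CB replicate 4 (1.13). Because the lines have separate samples of both fractions, these values do not share samples with those of HBB cells.

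The 3 remaining members were near or below 0 in Pkp4 cUTR cells. mt-Co1 had 6242, 8225, 8176 and 5552 CPM in CB and 12518, 7975, 6423 and 9784 CPM in Ps. Only Ps replicates 1 and 4 were above all CB samples, and log2(FC) was 0.36 (SE 0.19). mt-Nd2 had 409, 606, 856 and 663 CPM in CB and 582, 374, 468 and 533 CPM in Ps, with a log2(FC) of −0.35 (SE 0.19). mt-Nd5 had 222, 359, 333 and 566 CPM in CB and 262, 195, 174 and 249 CPM in Ps. Its log2(FC) was −0.70 (SE 0.23) with all samples and −0.46 without CB replicate 4, the highest sample. Scaling by quantile normalization put mt-Co1 at −0.33, and mt-Co1 is thus the 1 member whose direction in Pkp4 cUTR cells depended on the scaling.

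**Figure D4:**
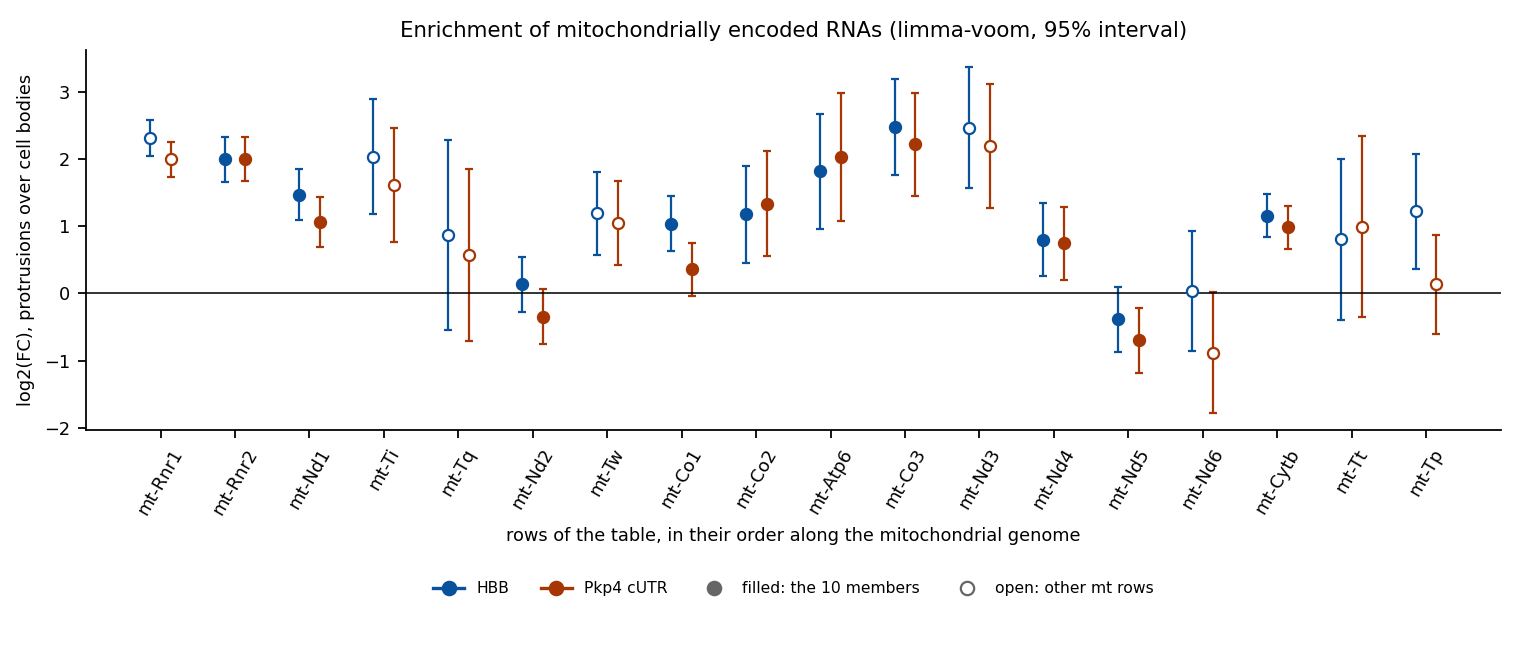
log2(FC) of protrusions over cell bodies with its 95% interval from limma-voom for the 18 mitochondrially encoded rows, in their order along the mitochondrial genome, in HBB (blue) and Pkp4 cUTR cells (red). Filled circles are the 10 members and open circles the other rows. mt-Nd2 and mt-Nd5, as well as mt-Nd6, lie near or below 0, while mt-Nd1, mt-Co3 and mt-Cytb lie well above it.

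Of the 8 rows that were not chosen, 7 could be tested, and most of those with an enrichment were short or rare. The 12S rRNA of the small ribosomal subunit, mt-Rnr1, had 134, 147, 146 and 140.3 CPM in HBB CB and 630.3, 726, 934 and 568 CPM in HBB Ps. It rose with a log2(FC) of 2.31 (SE 0.13, adjusted p = 8.73e-10, limma) in HBB cells and 1.99 (SE 0.13, adjusted p = 4.56e-09) in Pkp4 cUTR cells, higher in 4 of 4 Ps samples than in any CB sample of the line. The complex I subunit mt-Nd3, with 5 to 68 reads per sample, rose by 2.47 (SE 0.43, adjusted p = 8.82e-05) and 2.19 (SE 0.44, adjusted p = 0.000383). mt-Nd3 was above the authors' filter in 8 Ps samples but in only 1 CB sample, replicate 4 of Pkp4 cUTR cells. Its presence in the table thus leaned mostly on Ps samples, and its p-values carry that limit. The tRNA row mt-Tw rose by 1.19 in HBB cells (adjusted p = 0.00208) and by 1.05 in Pkp4 cUTR cells (adjusted p = 0.00641). mt-Tp rose in HBB cells, by 1.22 (SE 0.41, adjusted p = 0.0166), and had 0.13 (SE 0.35, adjusted p = 0.765) in Pkp4 cUTR cells. mt-Ti, with 2.03 and 1.61, was above the authors' filter in 8 Ps samples and 0 CB samples, so its presence in the table depended on a high level in Ps and no test is given.

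The other 3 rows did not pass. mt-Nd6, the 1 complex I subunit read from the opposite strand, had log2(FC) values of 0.04 (SE 0.42, adjusted p = 0.953) in HBB and −0.88 (SE 0.43, adjusted p = 0.0873) in Pkp4 cUTR cells. It overlaps the end of mt-Nd5, and whether the counting used strand is not given in the sources used here. mt-Tq had 0.87 and 0.57 (adjusted p = 0.278 and 0.439), and mt-Tt had 0.80 and 0.99 (adjusted p = 0.24 and 0.194). In all, 5 of the 8 rows in HBB cells and 4 in Pkp4 cUTR cells met the study's rule, mt-Ti included. Of all RNAs, 4.54% and 5.07% met it in the direction of Ps. mt-Ti, mt-Tq, mt-Tw, mt-Tt and mt-Tp are shorter than a read, so reads on them reach into their neighbours.

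Ratios of reads between 2 rows of the same sample do not depend on how a library is scaled, and they showed how unevenly the members were distributed. For each read of mt-Nd1 there were 0.417, 0.417, 0.482 and 0.506 reads of mt-Nd2 in HBB CB and 0.174, 0.159, 0.183 and 0.208 in HBB Ps. In Pkp4 cUTR cells the ratio was 0.380, 0.453, 0.470 and 0.499 in CB and 0.153, 0.144, 0.176 and 0.209 in Ps. All 8 Ps samples were thus below all 8 CB samples, with a gap between 0.209 and 0.380. Both genes lie on 1 strand with only tRNAs between them. The ratio of mt-Nd5 to mt-Cytb behaved in the same way, at 0.642 ± 0.105 (SD, n = 4) in HBB CB, 0.221 ± 0.0393 in HBB Ps, 0.726 ± 0.120 in Pkp4 cUTR CB and 0.225 ± 0.0222 in Pkp4 cUTR Ps. Its fractions did not overlap in either line. mt-Nd4 over mt-Nd5 went the other way, from 0.398 ± 0.0667 and 0.349 ± 0.0590 in CB of the lines to 0.896 ± 0.0585 and 0.934 ± 0.0528 in Ps.

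Of the 10 ratios computed, mt-Nd5 over mt-Co1 fell from 0.0505 ± 0.00712 to 0.0190 ± 0.00346 in HBB cells and from 0.0555 ± 0.0311 to 0.0245 ± 0.00261 in Pkp4 cUTR cells. mt-Rnr2 over mt-Nd1 went from 0.0367 ± 0.00498 to 0.0530 ± 0.00799 and from 0.0281 ± 0.00982 to 0.0532 ± 0.0162, with overlap in Pkp4 cUTR cells. mt-Cytb over mt-Nd1 was 0.407 ± 0.0304 in HBB CB, 0.328 ± 0.0297 in HBB Ps, 0.364 ± 0.0900 in Pkp4 cUTR CB and 0.341 ± 0.0497 in Pkp4 cUTR Ps, and in Pkp4 cUTR cells the fractions overlapped. The rRNAs, which are cut from the same precursor, gave mt-Rnr2 over mt-Rnr1 ratios of 0.340 ± 0.0267, 0.273 ± 0.0141, 0.257 ± 0.0252 and 0.260 ± 0.0440 in HBB CB, HBB Ps, Pkp4 cUTR CB and Pkp4 cUTR Ps. HBB CB, at 0.3084 to 0.3736, lay above HBB Ps (0.2539 to 0.2855) and above Pkp4 cUTR CB (0.233 to 0.2925) without overlap. In Pkp4 cUTR cells the fractions overlapped. mt-Co1 over mt-Nd1 was 5.16 ± 0.428 in HBB CB and 3.83 ± 0.433 in HBB Ps, and 5.15 ± 0.965 and 3.15 ± 0.583 in Pkp4 cUTR cells. It was lower in every Ps sample than in every CB sample within each line.

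**Figure D5:**
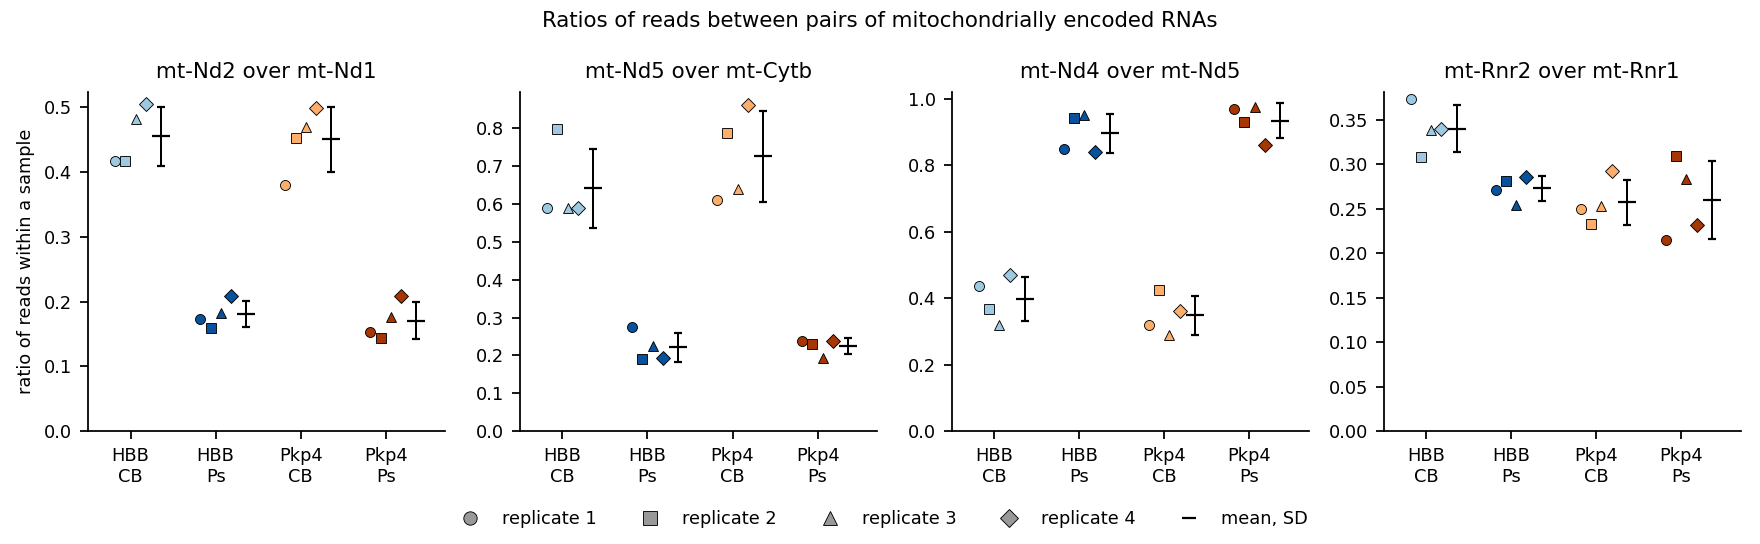
Ratios of reads between pairs of mitochondrially encoded RNAs within each of 16 samples (axes start at 0), with the group mean and SD in black. mt-Nd2 over mt-Nd1 and mt-Nd5 over mt-Cytb are lower, and mt-Nd4 over mt-Nd5 higher, in every protrusion sample than in every cell-body sample. mt-Rnr2 over mt-Rnr1 lies between 0.215 and 0.374, with every protrusion sample below every cell-body sample in HBB cells and overlap in Pkp4 cUTR cells.

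As a share of all counted reads, the 10 members made up 1.05%, 1.21%, 1.21% and 0.861% in HBB CB and 1.77%, 1.89%, 2.34% and 1.55% in HBB Ps. In Pkp4 cUTR cells they made up 0.903%, 1.21%, 1.30% and 0.986% in CB and 1.70%, 1.13%, 0.907% and 1.41% in Ps. The fractions were apart in HBB cells and overlapped in Pkp4 cUTR cells, and the share followed mt-Co1, by far the largest row. Of 7 nuclear-retained and small structural RNAs in the table, 3 were lower in Ps, 1 was higher and 3 were not called, in either line. At the same limit, an adjusted p under 0.05, 28.9% of all RNAs were lower and 28.3% higher in HBB Ps. In Pkp4 cUTR cells these shares were 28.5% and 28.2%. Malat1 fell by 1.85 (SE 0.20) in HBB and by 1.27 (SE 0.20) in Pkp4 cUTR cells, and Neat1 fell by 1.48 and 1.21 on the log2 scale (adjusted p = 5.91e-07 and 4.01e-05 for Malat1 and 4.63e-07 and 4.58e-06 for Neat1, limma). Rn7sk, the 7SK RNA of the nucleus, rose by 1.90 and 1.74 (adjusted p = 0.0066 and 0.00619). The part of the nuclear RNAs in these shares was not tested.

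The effect of the competing Pkp4 3′UTR on enrichment was measured as log2(Diff FC), the log2(FC) of Pkp4 cUTR minus that of HBB cells. It was below 0 for 7 of 10 members, with a median of −0.22 over the members and 0.01 over all RNAs. The median was 0.08 without Pkp4 cUTR CB replicate 4. The member furthest from 0 was mt-Co1 at −0.68 (SE 0.27, 95% interval −1.25 to −0.11), followed by mt-Nd2 at −0.48 (SE 0.28, interval −1.06 to 0.10) and mt-Nd1 at −0.41 (SE 0.26, interval −0.94 to 0.13). mt-Rnr2 was at 0.01 (SE 0.22), with an interval of −0.46 to 0.48. The study sorted RNAs enriched in Ps by cutoffs on both log2(Diff FC) and p. Only the limit on the unadjusted p, 0.1, was used here. Without the other cutoff, and applied to all RNAs with a negative value, this limit is wider than the study's. It was met by mt-Co1 and mt-Nd2, 2 of 10 members, where 2.36% of all RNAs met it. mt-Nd2 was not enriched in HBB Ps and so was outside the study's set. In the other direction 0 members met it, where 3.44% of all RNAs did. With the replicate number as a block shared by both lines, 3 of 10 members met it, mt-Nd1 in addition, while the RNAs that met it in either direction rose from 748 to 942. Without precision weights, or with median centring, quantile normalization or log2(CPM + 1), mt-Co1 was the only member that met it. After adjustment, 0 of all 12900 RNAs passed in either direction (limma), and 300 had an unadjusted p under 0.05. As each sample was left out in turn, mt-Co1 stayed past the limit, with values from −0.84 to −0.52, whereas mt-Nd2 did so without 6 of the 16 samples and lost it without the others, with values from −0.67 to −0.31, the last without HBB Ps replicate 3.

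Among the rows that were not chosen, this limit was met by mt-Rnr1, at −0.32 (SE 0.18), and by mt-Tp, at −1.09 (SE 0.54). The adjusted p from limma was 1 for both. The intervals of the low members were wide, from −0.91 to 1.22 for mt-Co2 and from −1.08 to 1.50 for mt-Atp6, so that a rise by a fold change of 2 lay inside both.

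Compared between lines within a fraction, the members had fitted values on both sides of 0 in CB and below 0 in Ps. In CB, the log2 fold change of Pkp4 cUTR over HBB lay between −0.39 (SE 0.16, mt-Rnr2) and 0.05 (SE 0.18, mt-Nd1), and 0 of 10 members passed an adjusted p under 0.05 in either direction, where 3.42% of all RNAs passed upward and 5.55% downward. At an unadjusted p under 0.05 the count of lower members was 1 of 10, mt-Rnr2, where 12.1% of all RNAs were lower. A fit without precision weights, limma with an intensity trend, also gave 0. Without Pkp4 cUTR CB replicate 4, mt-Rnr2 was at −0.57 and passed. In Ps all 10 members were below 0, from −0.65 (SE 0.19, mt-Co1) to −0.09 (SE 0.32, mt-Co2), with a median of −0.33 against 0.01 over all RNAs. The adjusted limit was passed by 1 of 10, mt-Co1, where 4.26% of all RNAs passed downward and 2.89% upward. Because the members were chosen with values of these samples in view, such counts describe them and are no test. At an unadjusted p under 0.05 it was 3 of 10, with mt-Nd2 and mt-Rnr2, where 11.4% of all RNAs were lower. With 1 sample left out, mt-Co1 met the adjusted limit only without HBB CB replicate 4, Pkp4 cUTR CB replicate 4 or Pkp4 cUTR Ps replicate 1. Its values ran from −0.81 to −0.49. The fit without precision weights gave 0, as did quantile normalization and log2(CPM + 1). Without Pkp4 cUTR CB replicate 4, mt-Rnr2 passed as well. The samples of the lines overlapped for all 10 members in both fractions. Within the pairs of the same number, the Pkp4 cUTR Ps sample was the lower in 4 of 4 pairs for mt-Co1, mt-Nd2 and mt-Rnr2, and in 3 or fewer for the other members. Of all RNAs, 6.49% had CB samples that did not overlap and were higher in Pkp4 cUTR cells and 8.11% had them lower, and in Ps these shares were 6.31% and 7.4%. For mt-Co1, HBB Ps replicate 4 was below Pkp4 cUTR Ps replicate 1. These comparisons share their samples with the enrichments above.

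The respiratory chain is built from mitochondrial and nuclear products, and the nuclear partners of the members were followed by lists of the subunits of complexes I, III and IV and of ATP synthase. Of 75 such RNAs in the table, 71 were higher in HBB Ps and 0 lower at an adjusted p under 0.05, where 28.3% of all RNAs were higher and 28.9% lower. In Pkp4 cUTR cells 68 were higher and 0 lower, where 28.2% and 28.5% of all RNAs were. Their changes were smaller than those of most members and close to each other. The median log2(FC) was 0.66 in HBB and 0.67 in Pkp4 cUTR cells, and the range in HBB cells was −0.05 to 1.28, against −0.38 to 2.48 for the members.

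By complex, 35 of 36 subunits of complex I, 7 of 9 of complex III, 13 of 13 of complex IV and 16 of 17 of ATP synthase were higher in HBB Ps. Examples were Ndufa2 of complex I at 1.07 (SE 0.17), Uqcrb of complex III at 1.28 (SE 0.13), Cox7b of complex IV at 1.21 (SE 0.12) and Atp5e of ATP synthase at 1.16 (SE 0.18). In Pkp4 cUTR cells these had 1.05, 1.22, 1.14 and 1.18. mt-Nd2 and mt-Nd5 thus lay below, and mt-Rnr2, mt-Co2, mt-Co3 and mt-Atp6 above, the whole range of these 75 partners in Pkp4 cUTR cells (−0.03 to 1.22). In HBB cells, with a range of −0.05 to 1.28, mt-Nd5 lay below it, and mt-Rnr2, mt-Nd1, mt-Co3 and mt-Atp6 above. mt-Nd2 and mt-Co2, at 0.13 and 1.18, lay inside the range of HBB cells. For log2(Diff FC), 0 of the 75 partners were called, with a range of −0.18 to 0.05, and 0 in each of the 4 lists had an unadjusted p under 0.1 (limma). Between the lines within a fraction 0 of 75 were called at an adjusted p under 0.05, while 1 of 75 in CB and 3 of 75 in Ps had an unadjusted p under 0.05.

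Further lists held RNAs for the upkeep and reading of the mitochondrial genome, for complex IV assembly and for mitochondrial transport. Of all RNAs, 28.3% were higher and 28.9% lower in HBB Ps, and 28.2% and 28.5% in Pkp4 cUTR cells. In HBB cells the counts for transcription and for DNA replication were near these shares. Of 36 RNAs for mitochondrial transcription and RNA maturation, 13 were higher and 8 lower in HBB Ps, and 15 and 9 in Pkp4 cUTR cells. Slirp, which binds and stabilizes mitochondrial mRNAs, rose by 1.46 (SE 0.16) in HBB cells, whereas Polrmt, the mitochondrial RNA polymerase, fell by 0.70 (SE 0.09) on the log2 scale. Of 15 RNAs for mitochondrial DNA replication and the nucleoid, 3 were higher and 5 lower in HBB Ps, among the latter Polg, the mitochondrial DNA polymerase, which fell by 0.53 (SE 0.07). Of 18 cytochrome c oxidase assembly factors, 10 were higher and 1 lower, led by Cox20 at 1.50 (SE 0.13). Of 18 RNAs for mitochondrial transport and dynamics, 8 were higher and 3 lower. Trak2, an adaptor that couples mitochondria to motors, and Kif5b, a kinesin heavy chain, rose by 1.92 (SE 0.14) and 1.82 (SE 0.18), and Mief2, which acts in mitochondrial fission, fell by 0.80 (SE 0.07). All values are log2(FC) of RNAs with adjusted p under 0.05 by limma.

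The RNAs whose levels were most like those of the members were sought by Pearson's r with the mean log2 CPM of the members over the 16 samples, for the 10142 RNAs whose own mean was above 1. The closest were Gm28437 (r = 0.951), Gm28438 (r = 0.944), Map1lc3b (r = 0.943), Dusp22 (r = 0.943) and Mrps36 (r = 0.942). The first and second are the copies of mt-Co3 and mt-Nd3 on chromosome 1, and much of each r is the step between the fractions. With the group means removed, the closest were Gm28437 (r = 0.837), Camta1 (r = 0.833), Gm29216 (r = 0.822), Rpl14-ps1 (r = 0.813) and Hdac3 (r = 0.774). In the mean, each of the 10 members counts equally, so that the low rows weigh as much as mt-Co1.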

How the data were processed

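RNA-Seq (stranded libraries, paired reads) was made from 4 replicates of each of 4 groups, 16 samples. The labels call the kit one for total RNA and the methods one for mRNA, under the same catalogue number, so whether poly(A) RNA was selected is not settled. Alignment by the authors was to mm10, with STAR 2.4.2a run in 2 passes. They counted reads with Rsubread and deposited log2 CPM values from limma-voom (limma 3.26.1, 0.5 reads added), which kept RNAs above 0.5 in at least 1 sample. The handling of reads that fit several places and of strand is not given in the sources used here.

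The reads behind the values were recovered (100% within 0.01 of a whole number). They entered limma-voom again (limma 3.58.1, R 4.3.3) with the authors' scaled library sizes, 1 mean per group and Benjamini-Hochberg adjustment over all 12900 RNAs. Total reads per sample set the counting error, and 3 reads correspond to 0.0890 to 0.176 CPM; such floors speak of counting error alone. Replicates are separate samples of one line, so p-values measure the spread between these samples. The members, lists and named genes were chosen with earlier results of these data known. Named are the 10 members, the other mitochondrially encoded rows, examples from the highest and lowest of each list at adjusted p under 0.05 in HBB cells, the 5 RNAs most like the members, and the copies of the members. Copies were sought with BLAST+ 2.17.0 in the GENCODE vM21 transcripts (GRCm38, the assembly of mm10); copies outside annotated transcripts were not analysed here. The script was tested on simulated data.

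Between the lines, samples with the same number shared deviations from their group means, with correlations across RNAs of 0.331 to 0.628 in CB and 0.196 to 0.392 in Ps, so the numbers in the labels were taken to pair the lines within a fraction. For Ps and CB of the same number the values were 0.0455 to 0.389 in HBB and −0.362 to 0.00248 in Pkp4 cUTR cells, so not every pair passed 0.1 and the fractions were not taken as paired. The pairing of the lines was used only to count pairs. The main fit had no block, so its p-values between lines and for log2(Diff FC) leave this pairing out. The block shared by both lines gave Ps and CB of a number the same effect, so it does not represent this pairing either. The alternatives were limma with a trend and no weights, 4 other scalings, log2(CPM + 1), a filter, replicate blocks, and leaving out each sample or both CB samples of number 4.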

Additional observations from a re-analysis of the deposited data

Results flagged for a closer look

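Of 72 sets of 4 values tested (18 mitochondrially encoded rows in 4 groups), 11 had a sample far from the other 3, by Dixon's criterion at its 95% critical value, and chance flags about 1 in 20. All values are log2 CPM.

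In Pkp4 cUTR CB, replicate 4 was high in both rRNAs, with 7.52 for mt-Rnr1 (others 7.03 to 7.07) and 5.75 for mt-Rnr2 (others 4.94 to 5.06). In HBB CB, replicate 4 was high in mt-Co2 at 1.93 (others 0.42 to 0.65) and in mt-Co3 at 1.95 (others 0.48 to 0.67), and replicate 3 was high in mt-Nd2 at 9.54 (others 9.08 to 9.15).

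In Pkp4 cUTR Ps, replicate 1 was high in mt-Nd1 at 11.90 (others 11.32 to 11.37), mt-Atp6 at 1.21 (others 0.62 to 0.69) and mt-Co3 at 3.52 (others 2.70 to 2.76), and low in the tRNA row mt-Tw at 1.06 (others 2.09 to 2.23). In HBB Ps, replicate 1 was low in the tRNA rows mt-Tq at −2.01 (others 0.60 to 0.99) and mt-Tw at 1.48 (others 2.06 to 2.18). The causes were not tested.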

How the results depend on the processing

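Of 1275 values of single members under the alternatives, 1270 moved by less than the combined replicate SD of the groups compared. The other 5 moved by more, and 0 turned from a called value to the opposite sign. Most of the values come from leaving out 1 sample, which can hardly move a group mean by that SD. The count of 1270 is therefore no measure of how robust the values are. Quantile normalization moved mt-Co1 (0.47 in HBB and −0.33 in Pkp4 cUTR cells) and mt-Nd1 (0.81 and 0.41), and log2(CPM + 1) moved mt-Atp6 in Pkp4 cUTR cells (0.90). Scaling to total reads shifted the median log2(FC) of all RNAs to −0.23 in HBB and −0.25 in Pkp4 cUTR cells. Then 4 members in each line, mt-Atp6 included, met the study's rule in place of 7 and 5. As each sample was left out, the median over the members ran from 1.04 to 1.25 in HBB cells, from 0.90 to 1.11 in Pkp4 cUTR cells, from −0.32 to 0.08 for log2(Diff FC), from −0.34 to 0.05 between lines in CB and from −0.42 to −0.18 in Ps.

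Of the 8 other rows, 5 met the rule in HBB cells, but 3 when scaled to total reads with or without the mitochondrial rows and with log2(CPM + 1). In Pkp4 cUTR cells 4 became 2 with log2(CPM + 1). For log2(Diff FC), 2 became 0 at an adjusted p under 0.05 and with log2(CPM + 1), and 1 with median centring, with a replicate block within each line and without both CB samples of number 4; with single samples left out it ran from 0 to 3. Between lines, 0 became 1 at an unadjusted p under 0.05 in CB and in Ps, and ran from 0 to 1 in CB as samples were left out. The causes were not tested.

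With a replicate block within each line the median over the members was 1.12 in HBB and 1.03 in Pkp4 cUTR cells and −0.23 for log2(Diff FC), and with a replicate block shared by both lines it was −0.09 between lines in CB and −0.34 in Ps. The shared block left the calls of the members between lines as they were. It raised those for log2(Diff FC) from 2 to 3, as did scaling to total reads without the mitochondrial rows. Scaling to total reads, the filter and the block within each line left them at 2. Only mt-Co1 met that limit with limma trend, median centring, quantile normalization or log2(CPM + 1), and without both CB samples of number 4. Over all RNAs, and counting both directions, a fold change above 2 at an unadjusted p under 0.05 called 1102 in HBB and 1031 in Pkp4 cUTR cells, 464 and 399 with log2(CPM + 1), and 697 and 649 with only RNAs of a mean log2 CPM above 0.5 tested. The rows mt-Co2, mt-Co3 and mt-Atp6 had 6 to 261 reads per sample and the widest errors of the members. The parts of read number and of CB replicate 4 in these errors were not tested.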
